A study of Homo sapiens with 6 samples.

Results

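The insulin-like growth factor (IGF) binding proteins are a family of 7 genes, *IGFBP1* to *IGFBP7*, and were taken by gene symbol from a table of 20824 genes. All 7 were found in the table. Each was measured as RPKM, a read count scaled by transcript length and by the library's total, in 6 RNA-Seq libraries of 21NT cells, an established human breast cancer line that models ductal carcinoma *in situ*. The 3 lines compared were 21NT cells stably transfected with an empty pcDNA3.1 vector (EV), with the same vector carrying TBX3iso1, or with the vector carrying TBX3iso2, and 2 libraries were made from each. TBX3 is a T-box transcription factor, and its second isoform differs from the first by an insertion within the DNA-binding domain. All lines were under G418 selection, each being a pool of resistant clones, and were harvested at 80% confluence in αMEM with 10% FBS, 2.8 µM hydrocortisone, EGF at 12.5 ng/mL and insulin at 1 µg/mL. The EV control therefore received insulin and hydrocortisone as did both TBX3 lines. The sources used here do not say whether the 2 libraries of a line came from separate cultures, so p-values measure the spread between these libraries, which may be technical.

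IGF1 and IGF2 are secreted growth factors that signal through the receptor tyrosine kinase IGF1R, and through the insulin receptor. The binding proteins other than IGFBP7 hold IGFs with high affinity and so keep them from the receptor or carry them to it, whereas IGFBP7 itself binds them weakly. Proteases cut the binding proteins and release the growth factor, and several members also attach to cells through integrins or other surface partners. In the mammary gland the family is secreted by epithelium and stroma, and IGFBP5 is known for its part in involution after lactation.

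The table behind these levels was deep, with 43176600 to 54512400 alignments per library. A gene was tested if its mean over the 6 libraries reached 0.5 RPKM, which 12805 genes did, and was called if its fold change exceeded 1.5 with a Benjamini-Hochberg adjusted p under 0.05 in limma. *TBX3* itself, whose gene level checks overexpression against EV but not which isoform a line carries, ranged from 8.24 to 8.52 RPKM in EV, from 11.4 to 13.1 in TBX3iso1 and from 15.5 to 17.5 in TBX3iso2. The fold change of *TBX3* against EV was 1.45 in TBX3iso1 (limma, adjusted p = 0.00378), which was under the fold threshold, and 1.96 in TBX3iso2 (limma, adjusted p = 0.000257). Against EV, 2757 genes were called in TBX3iso1 (955 higher and 1802 lower) and 2720 in TBX3iso2 (1145 higher and 1575 lower). The balance of the 2 directions depended on the scaling, with 1268 higher and 1306 lower for TBX3iso1 after quantile normalization and 1263 and 1449 after median-ratio scaling. For TBX3iso2 the same scalings gave 1332 higher and 1330 lower, and 1276 and 1459. The direct comparison of TBX3iso2 with TBX3iso1 gave 444 higher and 361 lower, which became 348 and 434 after quantile normalization and 351 and 440 after median-ratio scaling.

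Of 8 epithelial markers, 7 passed the filter, and their summed level was 2256 to 2330 RPKM in EV, 1814 to 2004 in TBX3iso1 and 2104 to 2351 in TBX3iso2, with *KRT14* near 0 in all lines. *KRT8*, *KRT18* and *KRT19* made up most of that sum, and its members did not move together. *KRT5* was called higher in both TBX3 lines (log2 fold changes 1.20 and 1.25), *CDH1* lower in TBX3iso1 (-0.70) and *KRT19* lower in TBX3iso2 (-0.72). The summed level of 7 fibroblast markers was 4.73 to 5.001 RPKM in EV, 8.18 to 8.81 in TBX3iso1 and 7.18 to 7.61 in TBX3iso2; *COL1A1* made up most of it and the other 6 genes failed the filter. The 3 endothelial markers summed to 7.20 to 7.56 RPKM in EV, 1.17 to 1.18 in TBX3iso1 and 1.23 to 1.40 in TBX3iso2, almost all of it *PECAM1*, while *CDH5* and *VWF* were near 0. The 3 leukocyte markers summed to 43.2 to 44.1 RPKM in EV, 34.2 to 34.3 in TBX3iso1 and 34.0 to 34.1 in TBX3iso2, almost all of it *CD68*, while *PTPRC* and *CD3E* were near 0. The part of these markers in the results was not tested. In bulk RNA, fewer cells that make a transcript and less transcript per cell cannot be told apart.

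The family is spread over 5 chromosomes, and coordinates are given on GRCh37, the build that hg19 names. *IGFBP1* (chr7:45927959-45933259, plus strand) and *IGFBP3* (chr7:45951844-45961473, minus strand) lie tail to tail with 18584 bases between them. *IGFBP2* (chr2:217497551-217529159, plus strand) and *IGFBP5* (chr2:217536828-217560272, minus strand) are arranged in the same way, 7668 bases apart. *IGFBP4* lies at chr17:38599702-38613977 and *IGFBP6* at chr12:53491220-53496129, both on the plus strand, and *IGFBP7* at chr4:57896939-57976551 on the minus strand. Of the 7 genes, 5 had upstream sequence in the RefSeq promoter table, with 7 start sites in all. For *IGFBP2* only the first of 3 start sites is shown. The 250 bases before the start are shown for the 2 members that were called in these data, *IGFBP3* and *IGFBP2*, and for *IGFBP4*, which was not called. Each was located by an exact match in GRCh37 and is written 5′ to 3′ on the strand of the gene. Capitals mark a TATA-type hexamer (TATAAA or TATATA) or the T-box octamer AGGTGTGA, the core of the element bound by T-box factors, read on either strand.
*IGFBP3*, chr7:45960872-45961121, minus strand: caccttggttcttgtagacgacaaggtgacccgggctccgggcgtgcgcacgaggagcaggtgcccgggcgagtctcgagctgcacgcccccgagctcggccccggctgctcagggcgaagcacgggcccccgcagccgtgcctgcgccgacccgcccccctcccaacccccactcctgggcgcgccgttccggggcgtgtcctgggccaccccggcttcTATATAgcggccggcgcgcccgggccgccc
*IGFBP2*, chr2:217497301-217497550, plus strand: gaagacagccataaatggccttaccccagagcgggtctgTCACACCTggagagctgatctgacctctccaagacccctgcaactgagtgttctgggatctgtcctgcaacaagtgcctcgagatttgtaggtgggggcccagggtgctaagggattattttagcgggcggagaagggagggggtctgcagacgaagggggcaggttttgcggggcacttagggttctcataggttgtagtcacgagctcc
*IGFBP4*, chr17:38599452-38599701, plus strand: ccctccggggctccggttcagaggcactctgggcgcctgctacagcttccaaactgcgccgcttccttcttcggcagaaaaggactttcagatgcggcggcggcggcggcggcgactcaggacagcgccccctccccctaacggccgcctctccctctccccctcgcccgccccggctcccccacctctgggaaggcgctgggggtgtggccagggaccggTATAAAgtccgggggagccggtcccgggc

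By the GENCODE gene bounds, the *IGFBP3* window lies within the annotated *IGFBP3* gene, whereas the *IGFBP2* and *IGFBP4* windows end just before the start of their genes. The TATA-type hexamer stood 30 bases before the start in *IGFBP3*, where TATATA reads alike on both strands, and 29 bases before it in *IGFBP4*. Such a hexamer was present in 12.8% of the 35116 upstream windows of the same length. The T-box octamer was found once, on the minus strand 211 bases before the first of 3 *IGFBP2* starts, and was present in 0.786% of all windows. A GC box (GGGCGG on either strand, 42.6% of windows) was found before 5 of the 7 starts, with 2 matches in *IGFBP3*. The *IGFBP3* and *IGFBP4* windows were 76% and 71.6% G and C, against a median of 58% over all windows. These matches describe letters and do not show binding.

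In EV cells the family was dominated by *IGFBP3*, the main IGF carrier of serum, and by *IGFBP6*, which prefers IGF2. *IGFBP3* stood at 213 ± 7.56 RPKM (SD, n = 2) and *IGFBP6* at 95.6 ± 1.19, followed by *IGFBP4* at 21.0 ± 0.385. *IGFBP2* (1.49 ± 0.180 RPKM) and *IGFBP1* (0.948 ± 0.158) were low, *IGFBP5* was at 0.246 ± 0.0420, and *IGFBP7* was at or near 0. RPKM is scaled by length, so these levels can be set beside each other between genes. By rank among the 20824 genes, *IGFBP3* was number 195 in EV and *IGFBP6* number 582. The same order held in TBX3iso1, and within every line the libraries of neighbouring members in the order did not overlap. In TBX3iso2 the order of the top pair was reversed, with *IGFBP6* above *IGFBP3* in both libraries.

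**Figure D1:**
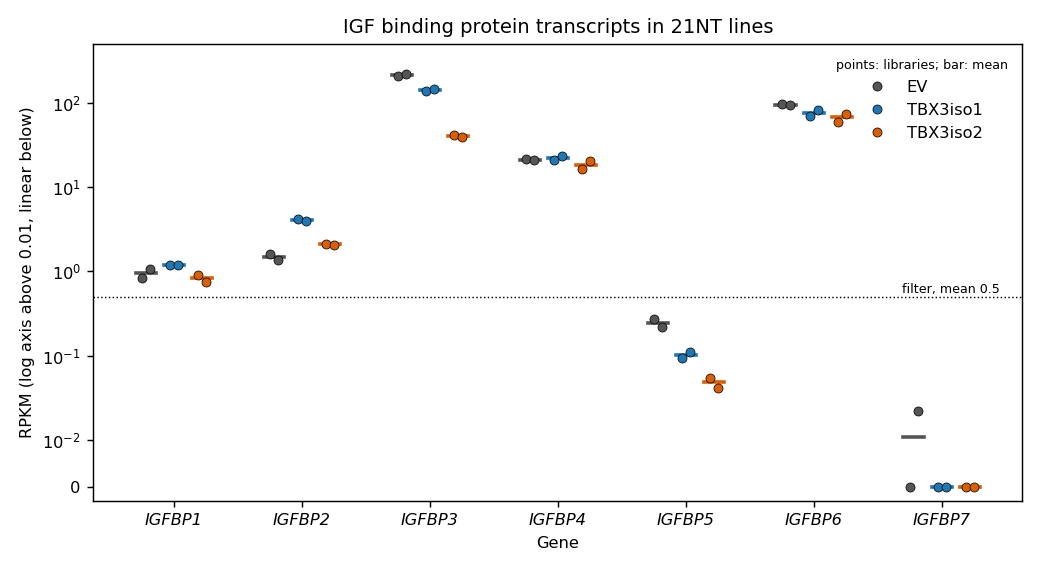
RPKM of the 7 IGF binding proteins in each library of the EV, TBX3iso1 and TBX3iso2 lines, on an axis that is logarithmic above 0.01 and linear below; points are libraries and bars are means of 2. *IGFBP3* falls from about 213 RPKM in EV to 40.7 in TBX3iso2, *IGFBP2* is highest in TBX3iso1 at 4.05, and *IGFBP5* and *IGFBP7* lie under the dotted filter at 0.5 RPKM.

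*IGFBP3* carried the largest change among the tested members. It was measured at 208 and 219 RPKM in EV, at 139 and 145 in TBX3iso1, and at 41.9 and 39.5 in TBX3iso2. The 3 lines did not overlap, with EV highest and TBX3iso2 lowest. Relative to EV the level in TBX3iso2 was 5.23-fold lower (log2 fold change -2.39, 95% interval -2.57 to -2.20, limma, adjusted p = 3.04e-06). In TBX3iso1 it was 1.503-fold lower (log2 fold change -0.59, 95% interval -0.77 to -0.41, limma, adjusted p = 0.000875), which only just passed the fold threshold of 0.585 on the log2 scale. This call ended under median-ratio scaling, where the log2 fold change was -0.51, without EV replicate 2 (-0.55) and without TBX3iso1 replicate 1 (-0.56), although the adjusted p stayed below the threshold in each. TBX3iso2 was 3.48-fold lower than TBX3iso1 (log2 fold change -1.80, 95% interval -1.98 to -1.62, limma, adjusted p = 4.57e-05). The gene was deeply covered, with 1710 to 11330 alignments per kilobase in the 6 libraries, and its rank moved from 195 in EV to 405 in TBX3iso1 and 1738 in TBX3iso2.

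*IGFBP2*, which binds both IGFs and carries an integrin-binding RGD motif, moved the other way in TBX3iso1. Its level was 1.61 and 1.36 RPKM in EV, 4.15 and 3.95 in TBX3iso1, and 2.10 and 2.08 in TBX3iso2. The 3 lines again did not overlap, but here TBX3iso1 was the highest and EV the lowest. *IGFBP2* rose 2.63-fold in TBX3iso1 (log2 fold change 1.39, 95% interval 1.11 to 1.67, limma, adjusted p = 0.000124). In TBX3iso2 the log2 fold change was 0.47 (95% interval 0.19 to 0.75, limma, adjusted p = 0.0155), under the fold threshold, which it passed after quantile normalization (0.64) and without EV replicate 1 (0.59). The TBX3iso2 value was smaller with a pseudocount of 1 (0.32) and without EV replicate 2 (0.36). With no moderation of the variance its adjusted p was 0.0591 (unmoderated fit in limma). TBX3iso2 was lower than TBX3iso1 by 1.89-fold (log2 fold change -0.92, 95% interval -1.20 to -0.64, limma, adjusted p = 0.00337). Without the moderated variance the adjusted p of that difference was 0.0561. Coverage ran from 58.6 to 212 alignments per kilobase.

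*IGFBP6* was second to *IGFBP3* in EV and was the most abundant member in TBX3iso2. It was measured at 96.5 and 94.8 RPKM in EV, at 70.2 and 83.0 in TBX3iso1, and at 60.1 and 74.6 in TBX3iso2. Both TBX3 lines lay below EV, and they overlapped each other. The log2 fold change was -0.32 in TBX3iso1 (95% interval -0.61 to -0.04, limma, adjusted p = 0.0626) and -0.51 in TBX3iso2 (95% interval -0.80 to -0.23, limma, adjusted p = 0.0113). Neither passed the fold threshold, although the second did after quantile normalization (-0.60) and without TBX3iso2 replicate 2 (-0.67). Without TBX3iso2 replicate 1 the second was -0.36. With no moderation of the variance the adjusted p of the TBX3iso2 value was 0.112 (unmoderated fit in limma). The difference between the TBX3 lines was -0.19 (95% interval -0.47 to 0.10, limma, adjusted p = 0.345).

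*IGFBP4*, an inhibitor of IGF action that is cut by the protease PAPP-A, was not called in any comparison. It was measured at 21.3 and 20.8 RPKM in EV, at 21.0 and 23.4 in TBX3iso1, and at 16.4 and 20.5 in TBX3iso2. TBX3iso1 overlapped EV, and the higher TBX3iso2 library lay just under the lower EV library. The log2 fold change was 0.07 in TBX3iso1 (95% interval -0.19 to 0.34, limma, adjusted p = 0.625), -0.20 in TBX3iso2 (95% interval -0.46 to 0.07, limma, adjusted p = 0.194) and -0.27 between the TBX3 lines (95% interval -0.53 to -0.0045, limma, adjusted p = 0.156). The intervals against EV lay inside the fold threshold of 1.5 in both directions.

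*IGFBP1*, a liver-derived member whose transcription is held down by insulin, was expressed near the filter. It was measured at 0.836 and 1.06 RPKM in EV, at 1.19 in both TBX3iso1 libraries, and at 0.914 and 0.739 in TBX3iso2. TBX3iso1 lay above the other lines, and TBX3iso2 overlapped EV. The log2 fold change was 0.31 in TBX3iso1 (95% interval -0.09 to 0.71, limma, adjusted p = 0.176), -0.18 in TBX3iso2 (95% interval -0.57 to 0.22, limma, adjusted p = 0.432) and -0.48 between the TBX3 lines (95% interval -0.88 to -0.09, limma, adjusted p = 0.102). Coverage was 32.0 to 60.6 alignments per kilobase. The intervals are wide, so the levels are not shown to be alike.

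*IGFBP5*, which binds extracellular matrix, failed the filter. It was measured at 0.275 and 0.216 RPKM in EV, at 0.0942 and 0.109 in TBX3iso1, and at 0.0546 and 0.0419 in TBX3iso2. The 3 lines did not overlap and stood in the same order as for *IGFBP3*, with means at 41.4% of the EV mean in TBX3iso1 and 19.6% in TBX3iso2. A fit over all 20824 genes with no filter gave a log2 fold change of -0.77 in TBX3iso1 (limma, adjusted p = 0.0145) and -1.22 in TBX3iso2 (limma, adjusted p = 0.00456), and -0.44 between the TBX3 lines (limma, adjusted p = 0.122). These values understate the ratio of the levels, because the pseudocount of 0.1 RPKM was of the same size as the levels. Coverage was 1.81 to 15.01 alignments per kilobase, and the TBX3iso1 value lost its call with a pseudocount of 1 (-0.18) and without EV replicate 1 (-0.65), TBX3iso1 replicate 1 (-0.72) or TBX3iso1 replicate 2 (-0.83). With a pseudocount of 1 the TBX3iso2 value was -0.25.

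*IGFBP7*, the low-affinity member, was listed at 0 RPKM in 5 libraries and at 0.0218 in EV replicate 2. That single value corresponds to 0.940 alignments per kilobase, so the gene was not detectable at this depth in the other libraries and was not compared.

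Of the 7 members, 5 were tested. In TBX3iso1 against EV, 2 of the 5 were called, *IGFBP2* higher and *IGFBP3* lower, where 21.5% of all tested genes were called (7.46% higher and 14.1% lower). In TBX3iso2 against EV, 1 was called, *IGFBP3* lower, beside 21.2% of all tested genes (8.94% higher and 12.3% lower). In TBX3iso2 against TBX3iso1, 2 were called, *IGFBP2* and *IGFBP3*, both lower, beside 6.29% of all tested genes (3.47% higher and 2.82% lower). These counts over 5 genes were not tested against the background. The median log2 fold change of the tested members was 0.07, -0.20 and -0.48 in the 3 comparisons, against -0.05, -0.00 and 0.05 over all tested genes. Both comparisons with EV used the same EV libraries, so their values for a member are not independent of each other.

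**Figure D2:**
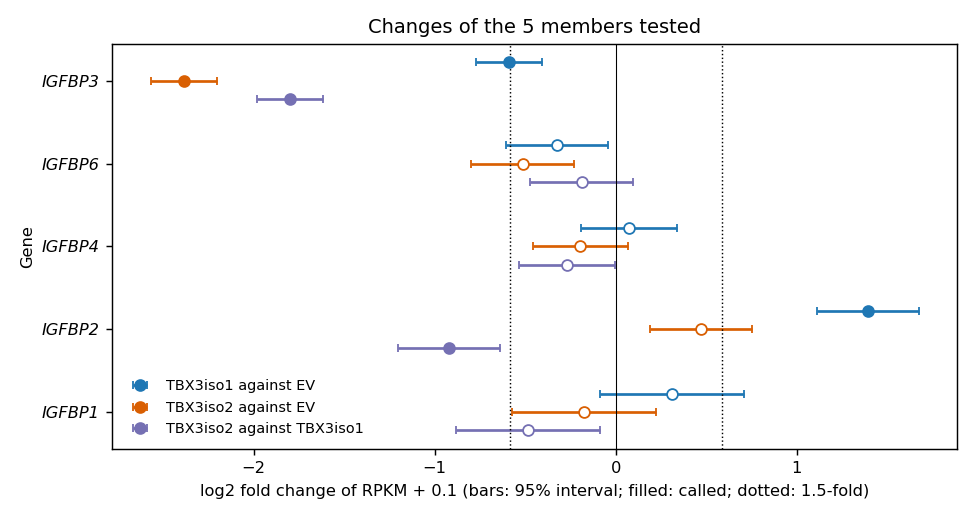
Log2 fold change of RPKM + 0.1 for the 5 tested members in the 3 comparisons; bars are 95% intervals, filled points were called and dotted lines mark a 1.5-fold change. *IGFBP3* is at -2.39 in TBX3iso2 and at -0.59, on the dotted line, in TBX3iso1, while *IGFBP2* is at 1.39 in TBX3iso1.

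The summed level of the 7 members followed *IGFBP3*. It was 328 and 337 RPKM in EV, 236 and 256 in TBX3iso1, and 122 and 138 in TBX3iso2, with no overlap between lines. The mean was 73.9% of the EV mean in TBX3iso1 and 38.9% in TBX3iso2, and the fall of *IGFBP3* made up 82.4% and 84.9% of the fall of the sum. *IGFBP3* supplied 64.1% ± 1.13 (SD, n = 2) of the family sum in EV, 57.7% ± 1.78 in TBX3iso1 and 31.6% ± 4.09 in TBX3iso2. *IGFBP6* supplied 28.8% ± 0.871, 31.1% ± 1.81 and 51.9% ± 3.39, and *IGFBP4* 6.33% ± 0.229, 9.01% ± 0.155 and 14.2% ± 1.01. A rise in share is therefore not a rise in level, since neither *IGFBP6* nor *IGFBP4* was called higher in any comparison.

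**Figure D3:**
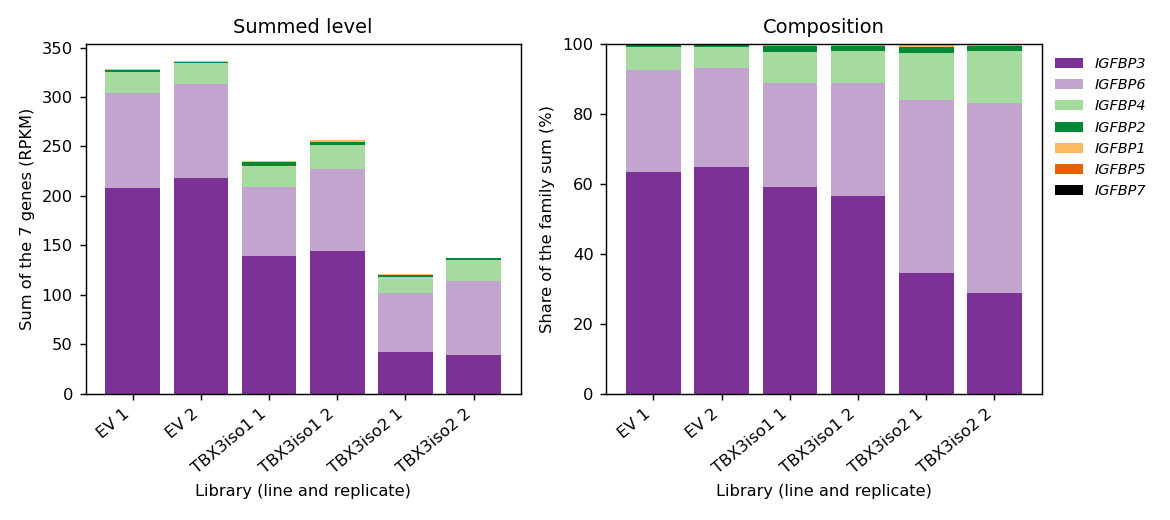
Left, the summed RPKM of the 7 members in each library, stacked by gene; right, each member's share of that sum in percent. The stack shrinks from 328 and 337 RPKM in EV to 122 and 138 in TBX3iso2, and *IGFBP6* replaces *IGFBP3* as the largest band there.

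Ratios between members within a library do not depend on a linear scaling of that library. *IGFBP3* over *IGFBP6* was 2.16 and 2.31 in EV, 1.98 and 1.74 in TBX3iso1, and 0.698 and 0.530 in TBX3iso2. *IGFBP3* over *IGFBP4* was 9.76 and 10.5 in EV, 6.63 and 6.19 in TBX3iso1, and 2.56 and 1.92 in TBX3iso2. Both ratios separated the 3 lines in the same order. *IGFBP3* over *IGFBP2* was 129 and 161 in EV, 33.4 and 36.7 in TBX3iso1, and 20.0 and 19.0 in TBX3iso2. *IGFBP6* over *IGFBP4* was 4.53 and 4.57 in EV, 3.35 and 3.55 in TBX3iso1, and 3.66 and 3.63 in TBX3iso2, so for this pair both TBX3 lines lay below EV. With 2 libraries per line an exact permutation test of any such ratio cannot give a two-sided p below 0.333, and no p is given.

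The genes whose pattern was nearest to a called member were taken by Euclidean distance over the 6 libraries between log2(RPKM + 0.1) values, each set relative to its own EV mean. For *IGFBP3* these were *C1R* (distance 0.308), *COX6B2* (0.497) and *C1S* (0.611). *C1R* had mean levels of 6.79, 4.48 and 1.06 RPKM in EV, TBX3iso1 and TBX3iso2. Only 2 tested genes lay within a distance of 0.5 of *IGFBP3*, whereas 26 lay that near to *IGFBP2*. The 3 nearest to *IGFBP2* were *PDCD1LG2* (distance 0.186), *CIB2* (0.250) and *CREB3L1* (0.301), with *PDCD1LG2* at 1.03, 2.89 and 1.39 RPKM in the same order of lines.

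The partners of the family were read from a list of 43 IGF axis genes, of which 41 were in the table and 25 were tested. In TBX3iso1 against EV 10 were called (5 higher, 5 lower), in TBX3iso2 against EV 9 (3 higher, 6 lower) and between the TBX3 lines 6 (1 higher, 5 lower), beside background shares of 21.5%, 21.2% and 6.29%. The median log2 fold change of the list was 0.16, -0.14 and -0.24.

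The growth factors held by the family were barely transcribed in these cells. *IGF1* was listed at 0.00298 RPKM in EV replicate 1 and at 0 in the other 5 libraries. *IGF2* was at 0.0668 and 0.0580 RPKM in EV, 0.0229 and 0.0549 in TBX3iso1, and 0.102 and 0.0677 in TBX3iso2, with the lines close but not overlapping, and is uncertain because a read-through gene shares its exons. *IGFALS*, the acid-labile subunit that joins IGFBP3 and an IGF in serum, was also at or near 0, so neither the ligands nor this partner could be tested.

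Among the receptors, *IGF1R* was not called, whereas *INSR* and *IGF2R* were called lower in both TBX3 lines. *IGF1R* was measured at 5.13 and 4.92 RPKM in EV, 5.03 and 4.28 in TBX3iso1, and 4.96 and 3.73 in TBX3iso2, with overlap between all lines and log2 fold changes of -0.11 and -0.22 against EV (limma, adjusted p = 0.558 and 0.257). *INSR*, the insulin receptor, was at 1.60 and 1.60 RPKM in EV, 0.997 and 1.07 in TBX3iso1, and 0.587 and 0.502 in TBX3iso2, with no overlap. Its log2 fold change was -0.59 in TBX3iso1 (limma, adjusted p = 0.0135) and -1.40 in TBX3iso2 (limma, adjusted p = 0.000267), and the TBX3 lines differed by -0.82 (limma, adjusted p = 0.0107). *IGF2R*, which removes IGF2 from the cell surface, had log2 fold changes of -0.60 (limma, adjusted p = 0.0192) and -0.83 (limma, adjusted p = 0.00460). The TBX3iso1 calls of *INSR* and *IGF2R* lay at the fold threshold, and leaving out EV replicate 1 (limma, adjusted p = 0.0819 and 0.121) or EV replicate 2 (0.0841 and 0.0750) ended both. Leaving out TBX3iso1 replicate 1 ended that of *INSR* (limma, adjusted p = 0.0637), and TBX3iso1 replicate 2 that of *IGF2R* (0.0877). Both calls also ended under median-ratio scaling (log2 fold changes -0.51 for each), after quantile normalization (-0.37 for *INSR* and -0.58 for *IGF2R*) and with a pseudocount of 1 (-0.36 and -0.57), and that of *IGF2R* ended with no filter on low values (limma, adjusted p = 0.0799). The fourth gene, *INSRR*, was near 0.

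**Figure D4:**
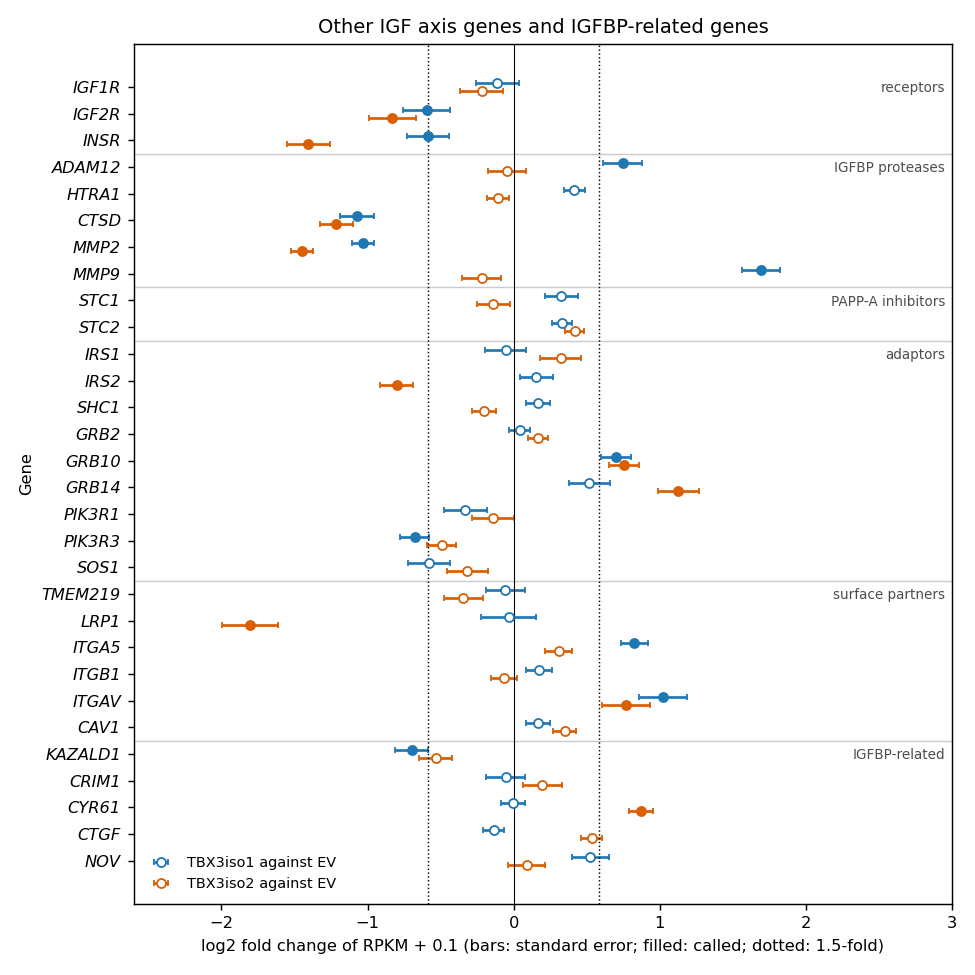
Log2 fold change of RPKM + 0.1 against EV for the 25 tested IGF axis genes, ordered by role, and for the IGFBP-related genes; bars are standard errors, filled points were called and dotted lines mark a 1.5-fold change. *MMP9* is at 1.69 in TBX3iso1 and -0.22 in TBX3iso2, and *LRP1* is at -0.04 and -1.80.

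Of 14 listed proteases known to cut IGF binding proteins, 5 were tested. In TBX3iso1 4 were called (2 higher, 2 lower) and in TBX3iso2 2 (both lower), beside 21.5% and 21.2% of all tested genes. *MMP9*, a gelatinase, was at 2.65 and 2.05 RPKM in EV, 7.64 and 7.88 in TBX3iso1, and 1.99 in both TBX3iso2 libraries, so that TBX3iso1 stood apart (log2 fold change 1.69, limma, adjusted p = 7.7e-05). *MMP2*, the other gelatinase, fell in both, by 1.03 on the log2 scale in TBX3iso1 and by 1.45 in TBX3iso2. *CTSD*, a lysosomal aspartic protease, was the most abundant of them at 1138 and 1111 RPKM in EV and fell by 1.07 and 1.21 on the log2 scale. *ADAM12*, which cuts IGFBP3 and IGFBP5, rose in TBX3iso1 (log2 fold change 0.74) and was at -0.04 in TBX3iso2. *HTRA1*, which cuts IGFBP5, was not called in any comparison. Its log2 fold change was 0.41 in TBX3iso1 (limma, adjusted p = 0.00315) and -0.52 between the TBX3 lines (limma, adjusted p = 0.00451). Both were under the fold threshold, as was the -0.11 in TBX3iso2 against EV. *PAPPA*, whose product cuts IGFBP4, lay between 0.0124 and 0.0782 RPKM and was not tested. Neither of the 2 tested PAPP-A inhibitors was called.

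Of the surface partners, *LRP1*, an endocytic receptor that binds IGFBP3, was the one with the largest change. It was at 1.23 and 1.101 RPKM in EV, 1.32 and 0.972 in TBX3iso1, and 0.283 and 0.244 in TBX3iso2. EV and TBX3iso1 overlapped and TBX3iso2 lay below both, with a log2 fold change of -1.80 against EV (limma, adjusted p = 0.000284) and -1.77 against TBX3iso1 (limma, adjusted p = 0.00148). *ITGA5*, whose integrin binds the RGD motif of IGFBP1 and IGFBP2, rose in TBX3iso1 by 0.83 on the log2 scale and was at 0.31 in TBX3iso2, under the fold threshold. *ITGAV* was called higher in both lines (log2 fold changes 1.02 and 0.77), the second call ending without EV replicate 2 (adjusted p = 0.0635) and without TBX3iso2 replicate 1 (log2 fold change 0.52). *TMEM219*, a receptor for IGFBP3, was not called.

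Among 10 adaptors that carry the receptor signal inward, 9 were tested, with 2 called in TBX3iso1 (22.2%, beside 21.5% of all tested genes) and 3 in TBX3iso2 (33.3%, beside 21.2%). *GRB10*, an inhibitor of insulin and IGF receptors, rose in both lines (log2 fold changes 0.70 and 0.76). *GRB14*, of the same family, was called in TBX3iso2 (1.13) and was at 0.52 in TBX3iso1, where it was also called under median-ratio scaling (0.59), after quantile normalization (0.73) and without EV replicate 2 (0.64). *IRS2*, a docking protein, was at 0.16 in TBX3iso1 and fell by 0.80 on the log2 scale in TBX3iso2, whereas *PIK3R3*, a regulatory subunit of PI3-kinase, fell by 0.68 in TBX3iso1 and was at -0.49 in TBX3iso2.

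Genes that share the amino-terminal domain of the family without its high affinity were counted separately. Of 13, 6 were tested, one of them the *HTRA1* named above, and 1 was called in each comparison with EV, a share of 16.7% that lay below the 21.5% and 21.2% of all tested genes. *KAZALD1* was lower in TBX3iso1 (log2 fold change -0.70, or -0.57 and not called after quantile normalization), and *CYR61*, a matricellular protein, was higher in TBX3iso2 (0.87). In TBX3iso2 against EV *KAZALD1* was at -0.53 and *CTGF* at 0.53, both under the fold threshold. *KAZALD1* passed that threshold there without EV replicate 2 (-0.60) and without TBX3iso2 replicate 2 (-0.61). Between the TBX3 lines *CYR61* (0.88) and *CTGF* (0.67) were called, both higher in TBX3iso2. That share of 33.3%, beside 6.29% of all tested genes, was not tested against the background. The median log2 fold change of the 6 was -0.03, 0.14 and 0.21 in the 3 comparisons.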

How the data were processed

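RNA was measured by Illumina TruSeq stranded mRNA sequencing, in paired reads of 51 bases, from 3 lines of 21NT cells with 2 libraries each. Per the study's methods, the authors aligned reads with TopHat to hg19, keeping up to 10 alignments per read, and computed RPKM values per gene in Partek. The deposited RPKM values were used as given. Tool versions, the gene annotation and the strand setting of the counting are not given in the sources used here. Reads shared by overlapping genes could therefore not be assigned.

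Genes averaging 0.5 RPKM or more over the 6 libraries were fitted as log2(RPKM + 0.1) in limma 3.58.1 (R 4.3.3) with 1 mean per line and a trended moderated variance, and p-values were adjusted by the method of Benjamini and Hochberg over all 12805 genes. The script was tested on simulated data. The row of alignment totals was left out of the fit. Same-numbered libraries deviated together, with correlations of 0.22, 0.114 and 0.499 for the 3 pairs of lines over 12805 genes, and the replicate number was tried as a block. Replicates differed by an SD of 0.183 to 0.274 in log2 ratio.

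The members and lists were chosen with earlier results of these data known. All members, list genes called in any comparison, ligands and receptors, and the 3 genes nearest in pattern to each called member are named; *HTRA1*, *PAPPA*, *IGFALS*, *TMEM219* and *WISP2* were added after their values were seen. Upstream sequences came from the RefSeq promoter table, located in GRCh37, and positions from GENCODE on GRCh37. Figures were drawn with matplotlib 3.10.9.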

Additional observations from a re-analysis of the deposited data

Results flagged for a closer look

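These genes were picked out because the TBX3iso2 and TBX3iso1 lines differed, as tested directly by limma between them with adjustment over all tested genes. Each line was a pool of resistant clones, so isoform, pool and level of TBX3 differ together between the 2 lines. *TBX3* itself was higher in TBX3iso2 than in TBX3iso1 (log2 fold change 0.43, limma, adjusted p = 0.0275), under the fold threshold. Of the family, *IGFBP3* had a log2 fold change of -1.80 (limma, adjusted p = 4.57e-05) and *IGFBP2* of -0.92 (limma, adjusted p = 0.00337), so TBX3iso2 cells had less of both than TBX3iso1 cells. The 2 genes stood on opposite sides of EV in both TBX3 lines, *IGFBP3* below and *IGFBP2* above. In TBX3iso2 the *IGFBP2* difference from EV was under the fold threshold (log2 fold change 0.47).

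Of their partners, *MMP9* (-1.91), *LRP1* (-1.77), *IRS2* (-0.96), *INSR* (-0.82) and *ADAM12* (-0.79) were lower in TBX3iso2 than in TBX3iso1, on the log2 scale. *GRB14* (0.61), *CYR61* (0.88) and *CTGF* (0.67) were higher. The call of *GRB14* ended when any 1 library other than TBX3iso2 replicate 1 was left out, and that of *INSR* ended without TBX3iso1 replicate 2 (-0.77). Both calls ended with a pseudocount of 1 (0.42 for *GRB14* and -0.40 for *INSR*). That of *GRB14* also ended under median-ratio scaling (0.56) and after quantile normalization (0.57). It ended too with no filter on low values and with only these 2 lines fitted (limma, adjusted p = 0.0740 and 0.0512). With no moderation of the variance the calls of *IGFBP2*, *LRP1*, *IRS2*, *INSR*, *ADAM12*, *GRB14* and *CYR61* ended (unmoderated fit in limma, adjusted p = 0.0517 to 0.117). The cause was not tested. Groups of 2 libraries are too small for a check of single outlying libraries.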

How the results depend on the processing

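Each result was recomputed under up to 16 alternatives, and no called value changed sign. A pseudocount of 1 lowered the calls over all genes from 2757 to 1812 in TBX3iso1 and from 2720 to 1870 in TBX3iso2 against EV. Between the TBX3 lines it lowered them from 805 to 419. With no moderation of the variance the calls in the 3 comparisons numbered 1890, 1963 and 199. With a filter at a mean of 2 RPKM they numbered 1847, 1894 and 504. Called members in TBX3iso1 numbered 1 under median-ratio scaling and 3 with no filter (more genes tested), instead of 2. In TBX3iso2 they numbered 2 with no filter and 3 after quantile normalization, instead of 1. Between the TBX3 lines they numbered 1 instead of 2 with no moderation. Called IGF axis genes between the TBX3 lines numbered 3 with the filter at 2 RPKM (fewer genes tested) and 1 with no moderation, instead of 6. With no moderation the calls of *IGF2R* and *ITGAV* against EV ended in both lines, as did that of *ADAM12* in TBX3iso1. Called IGFBP-related genes numbered 2 instead of 1 in TBX3iso1 with no filter and under median-ratio scaling, and 2 instead of 1 in TBX3iso2 with no filter. Between the TBX3 lines they numbered 3 with no filter and 1 with no moderation, instead of 2. With each library left out in turn, called members ranged from 1 to 2 in each comparison with EV and stayed at 2 between the TBX3 lines, and called IGFBP-related genes behaved alike, 1 to 2 and 2. The libraries concerned were EV replicate 2 and TBX3iso1 replicate 1 for the members in TBX3iso1, which left 1 called, and EV replicate 1 and TBX3iso2 replicate 2 in TBX3iso2, which left 2 called. For the IGFBP-related genes they were TBX3iso1 replicate 1 in TBX3iso1, and EV replicate 2 and TBX3iso2 replicate 2 in TBX3iso2, each of which left 2 called. A line left with 1 library was assumed to vary like the others. The replicate block, with 2838, 2795 and 900 genes called in the 3 comparisons, changed no count of called members (2, 1 and 2) and no call of a member. Where a value moved for a reason not named here, the cause was not tested. The alternatives for *IGFBP5* were chosen after seeing the data. Depth limits *IGFBP5* and *IGFBP7* most, at 15.01 and 0.940 alignments per kilobase or fewer.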

Other observations

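*WISP2*, a matricellular gene of the IGFBP-related list that failed the filter, was singled out after its values were seen. It was at 0.982 and 0.980 RPKM in EV, at 0.366 and 0.395 in TBX3iso1, and at 0.0693 and 0.0827 in TBX3iso2. The 3 lines did not overlap, and they stood in the order seen for *IGFBP3* and *IGFBP5*.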
